A study of Mus musculus with 22 samples.

Results

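The neurons described here were mature olfactory sensory neurons assigned to the dorsal zone because they carried RNA of Nqo1 or Acsm4. Their place in the tissue was not recorded. Nqo1 encodes a quinone reductase and Acsm4 an acyl-CoA synthetase, and both mark the dorsal zone of the mouse olfactory epithelium. They were taken from single-cell RNA sequencing (scRNA-seq) of the dissociated whole olfactory epithelium by a rule on unique molecular identifiers (UMIs, each standing for 1 captured RNA molecule). A cell had to pass quality limits (over 500 genes, over 1500 UMIs and under 20% mitochondrial UMIs) and limits that keep mature neurons. These were at least 5 UMIs of Omp, more Omp than Gap43 and Gng8 together, under 3 UMIs of the basal-cell keratins Krt5, Krt14 and Krt15, under 0.5% of UMIs from the sustentacular genes Cyp2g1, Cyp2a5 and Sec14l3, and under 5% from the neutrophil genes S100a8 and S100a9. It then needed at least 2 UMIs of Nqo1 and Acsm4 together and under 2 of Cd36, which marks another kind of sensory neuron. Of 32293 barcodes, 25185 passed the quality limits, 9133 were mature neurons and 1592 met the whole rule. These 1592 are called the positive neurons, and they made up 17.4% of mature neurons and 6.32% of the cells past the quality limits. The 6419 mature neurons with 0 UMIs of both genes and under 2 of Cd36 are called the negative neurons and served as the comparison. The other mature neurons comprised 820 with exactly 1 UMI of the gene pair and 302 with 2 or more UMIs of Cd36, and neither set was used further except where stated.

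The study asked what the loss of UPF3B does in olfactory sensory neurons. UPF3B is a factor of nonsense-mediated RNA decay (NMD), the pathway that degrades transcripts with premature stop codons and some normal transcripts. The scRNA-seq mice were males aged 7 to 8 weeks (strain C57BL/6 in the labels, C57BL/6J in the methods), 4 wild-type (WT, Upf3b+/y) and 4 Upf3b-null (Upf3b-/y), with 1 library from each mouse. Bulk libraries of 2 kinds, from mice of 8 to 9 weeks, were also used, each sample a pool of 3 males that were Upf3b+/y or Upf3b-/y. For RNA-seq, mice carried Omp-Cre, which acts in mature sensory neurons, with R26-eYFP, and eYFP-positive cells were sorted (4 samples of each genotype). For RiboTag, Omp-Cre was joined with the RiboTag allele, so that ribosome-bound RNA was drawn from mature neurons (3 samples of each genotype).

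A sensory neuron of the main olfactory epithelium settles on a single odorant receptor gene from a very large family and sends its axon to the olfactory bulb, where neurons with the same receptor converge. Receptor genes are used in zones that run from dorsal to ventral, and the zone of a neuron also sets the part of the bulb that its axon reaches. Class I receptors, an older group whose genes lie together on chromosome 7, are used almost entirely in the dorsal zone, and class II receptors in all zones. Ncam2 (also known as OCAM), a cell adhesion molecule, marks neurons outside the dorsal zone, and Nrp2, a semaphorin receptor, and Robo2, a Slit receptor, are graded in opposite directions and guide ventral and dorsal axons.

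The positive neurons numbered 267, 90, 66 and 124 in WT mice 1 to 4 and 376, 187, 253 and 229 in null mice 1 to 4. Summed over these neurons, a mouse gave between 193080 and 1027600 UMIs, 1487660 in WT and 3514610 in null mice. The median positive neuron held 2080 to 3337 UMIs and the median negative neuron 1943 to 3829, and the positive neurons had the lower median in 6 of 8 mice. No doublet caller was run. Among the 28 pairs of libraries, 3 shared cell barcodes of positive neurons, 4 barcodes in all.

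WT 3, WT 4 and null 4 stood apart in RNA of other cells. The gland and secretory list (10 genes, none at 0 over the libraries, led by Obp2a, an odorant binding protein) gave 82872, 3376 and 4096 CPM (UMIs of a gene scaled to a common library total) in positive neurons of WT 3, WT 4 and null 4. It gave 344 to 1499 CPM in the other 5 mice. The first principal component of the positive-neuron sums took 55.1% of the variance. WT 3 also had the highest median mitochondrial share, 15.4% against 4.97% to 7.88%. Results that rest on these 3 libraries are therefore given with and without them.

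The sums held hemoglobin and neutrophil RNA as well. The erythroid list (4 hemoglobin genes, led by Hbb-bs) ranged from 92.0 CPM in WT 2 to 115549 CPM in null 3. Its values were 4385, 21224 and 23682 CPM in the other WT mice and 5571, 2177 and 19596 CPM in the other null mice. The neutrophil list (12 genes, led by S100a8) ranged from 250.1 CPM in null 2 to 8929 CPM in null 4, and was at 363 to 4449 CPM in WT mice. Negative neurons of the same mice carried them too, with erythroid genes at 251199 CPM in null 3.

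The neurons were chosen by their measured UMIs of Nqo1, Acsm4 and Cd36 (and of the genes of the mature-neuron limits), so the levels of these genes are a description. Nqo1 was at 3878, 3809, 580.1 and 910.4 CPM in the positive neurons of WT mice 1 to 4 and at 2163, 3085, 2273 and 912.3 CPM in those of null mice 1 to 4. Acsm4 was at 523.0, 570.4, 284.9 and 315.6 CPM in WT and at 392, 479, 317 and 296 CPM in null mice. Nqo1 was thus lowest in the 3 libraries that stood apart, and Acsm4 in these and null 3. The genotypes overlapped widely, at 2294 ± 1794 (SD, n = 4) CPM in WT and 2108 ± 897 (SD, n = 4) CPM in null mice for Nqo1 and at 423 ± 144 and 371 ± 83.1 CPM for Acsm4. The mature neurons left out for 2 or more UMIs of Cd36 also carried these genes, Nqo1 at 51.6 to 1108 CPM and Acsm4 at 32.3 to 156 CPM. Among the members, 970 (60.9%) held UMIs of both genes, 546 (34.3%) of Nqo1 alone and 76 (4.77%) of Acsm4 alone. Just inside the limit lay 257 neurons (16.1%) with exactly 2 UMIs, and just outside it the 820 with 1.

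How clearly the rule separated neurons differed between mice. The median positive neuron held 9, 9, 2 and 3 UMIs of the pair in WT and 6, 9, 9 and 4 in null mice. In WT 3, 69.7% of the members sat at exactly 2 UMIs and 7.58% held 5 or more, while in WT 1 7.87% sat at 2 and 80.5% held 5 or more. Cells with at least 5% of UMIs from S100a8 and S100a9, which are neutrophil-like and should lack both genes, served as a gauge of background. Free RNA and doublets were not separated in them. Of these cells, 46 of 2785 (1.65%) held at least 2 UMIs of the pair, at median depths of 2359 to 3430 UMIs. In WT 3 this share was 5.88% (1 of 17 cells), above the 4.74% of mature neurons that met the rule there, so the members from WT 3 cannot be told apart from background by number alone. In the other mice the background was 0% to 4.52%, below the share of mature neurons in each.

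**Figure D1:**
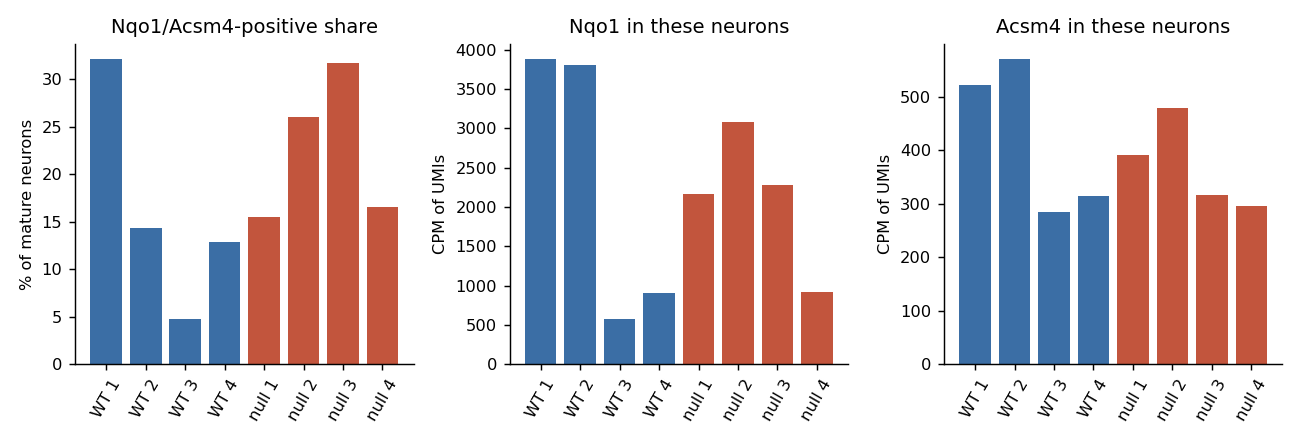
Bars give, for each of the 8 mice (WT blue, Upf3b-null red), the positive neurons as a percent of mature neurons, and the levels of Nqo1 and Acsm4 in them in CPM of UMIs. WT 3, WT 4 and null 4 have the lowest Nqo1 bars, at 580.1, 910.4 and 912.3 CPM, and the share spans 4.74% to 32.1%.

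The share of mature neurons that was positive did not differ between genotypes beyond the spread between mice. It was 32.1%, 14.3%, 4.74% and 12.9% in WT mice and 15.5%, 26.1%, 31.8% and 16.6% in null mice. The lowest 3 values were all from WT mice and the highest was WT 1, so the groups overlapped over most of their range. The means were 16.02% ± 11.5 (SD, n = 4) in WT and 22.5% ± 7.81 (SD, n = 4) in null mice, a difference of 6.47 percentage points (two-sided exact permutation test over mice, p = 0.371, where 0.0286 is the smallest p that 4 against 4 allows). With each mature neuron thinned to 2000 UMIs the difference was 5.87 points (exact permutation p = 0.429). Without WT 3, WT 4 and null 4 it was 1.23 points (exact permutation p = 0.8, where the smallest possible is 0.1), and leaving out a single mouse gave 2.71 points (without WT 3) to 11.8 points (without WT 1).

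The receptors of the positive neurons were read without use of the rule. A neuron was given a dominant receptor where an Olfr or Taar gene had at least 3 UMIs and at least 2 times those of the next receptor. This held for 577 positive neurons (36.2%) and 2069 negative neurons (32.2%), with a median of 7 and at most 97 UMIs of the dominant receptor in positive neurons. Positive neurons used 212 receptors, of which 43 were class I, and negative neurons used 409, of which 9 were class I. The matrices held 1141 receptor genes, 128 of them class I by their place between Rrm1 and Cckbr on chromosome 7.

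The 10 receptors that were dominant in most positive neurons covered 125 of the 577 (21.7%), and 104 receptors were seen in a single positive neuron. The leading receptor was the class I gene Olfr672 (ENSMUSG00000051172, chr7:104995760-105002029, minus strand, mm10), dominant in 22 positive neurons of 6 mice and in 1 negative neuron. The class II genes Olfr1030 (chr2:85979276-85988294) and Olfr77 (chr9:19916865-19929124) followed with 16 neurons of 6 mice and 14 neurons of 7 mice, each with 1 negative neuron. Olfr1025-ps1 and Olfr1406 had 13 each, Olfr364-ps1 had 11, Olfr1495 and the class I gene Olfr543 (chr7:102476579-102481679) had 10 each, and Olfr1362 and Olfr99 had 8 each. Of these 10, only Olfr364-ps1, with 8 negative neurons beside its 11, was split between the classes, and the others had at most 2 negative neurons. Among the 187 receptors dominant in at least 5 neurons of either class, 28 had over 80% of these in positive neurons, 141 had under 20% and 18 lay between.

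**Figure D2:**
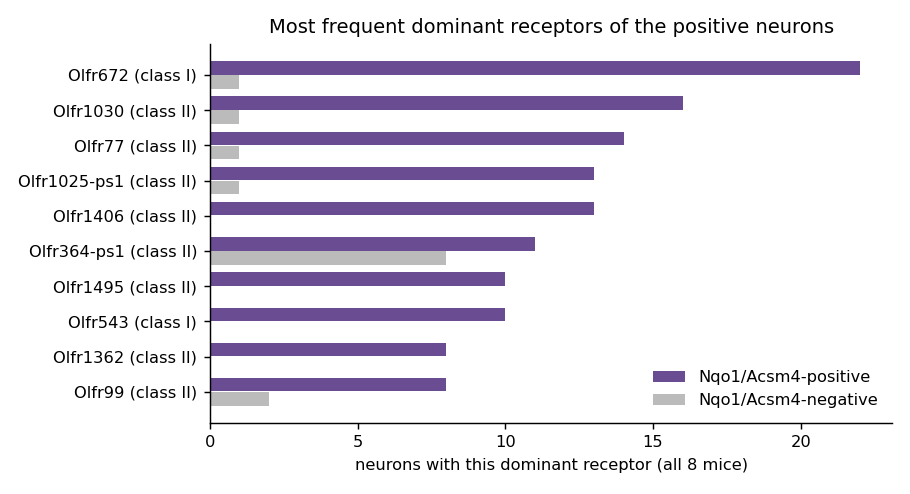
Bars give the number of positive and of negative neurons, summed over 8 mice, in which each of the 10 receptors most frequent in positive neurons was dominant. Olfr672 leads with 22 positive neurons and 1 negative neuron, and Olfr364-ps1 is split 11 to 8.

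Promoter stretches of 30 bases are shown for the dorsal marker Acsm4 and for frequent receptors of the positive neurons, because homeodomain proteins such as LHX2 and EMX2 bind sites with the core TAATTA and EBF proteins bind TCCC and GGGA parted by any 2 bases at olfactory promoters. They come from RefSeq promoters (GRCm38.p6, 250 bases before to 50 after the start), where 9 of the 12 names looked up (Nqo1, Acsm4 and the 10 receptors) matched. Only matched names with a hit are shown. Nqo1, Olfr1406, Olfr1495, Olfr543 and Olfr1362 matched but had no hit of either motif. Each line runs 5′ to 3′ on the gene's strand, and capitals mark the motif. The first base of the motif lies 18, 105, 93 and 188 bases before the RefSeq start in the 4 lines. For the receptors, that start is not the gene start of the annotation used for the positions above, and the stretches of Olfr77 and Olfr99 lie within the genes as that annotation bounds them. Acsm4 lies on the plus strand, chr7:119689998-119690027, Olfr1030 on the plus strand, chr2:85979195-85979224, Olfr77 on the plus strand, chr9:19917124-19917153, and Olfr99 on the minus strand, chr17:37280587-37280616.
Acsm4: aaaactctccTCCCAAGGGAttatgatcct
Olfr1030: actatgtttcttTAATTAtttctttggggt
Olfr77: agttgatgcttcTAATTAaggcagacagag
Olfr99: tctttatgtcTCCCTAGGGAgccattttta
Both motifs read the same on either strand, so a search of both strands gives the same hits, and they share no stretch of letters. TAATTA was in 18.6% of 948 Olfr promoters and 5.29% of all 32851 promoters. It was in 8 of 34 (23.5%) promoters of class I receptors and 27 of 143 (18.9%) of class II receptors used by positive neurons, and in 68 of 339 (20.1%) of receptors used by negative neurons. The EBF motif was in 0.904% of all promoters and 0.527% of Olfr promoters. It was in 0 of 34 promoters of class I receptors and 1 of 143 of class II receptors used by positive neurons. Among receptors used by negative neurons it was in 3 of 339. Such matches describe letters in a window and not binding.

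Class I receptors were concentrated in the positive neurons of every mouse. They were dominant in 132 of 577 positive neurons (22.9%) and in 12 of 2069 negative neurons (0.580%). By mouse, the class I share of positive neurons with a dominant receptor was 30.6%, 23.7%, 33.3% and 20.4% in WT and 24.5%, 12.7%, 16.3% and 26.3% in null mice. In negative neurons it was 0.532%, 0%, 1.14% and 2.62% in WT and 0%, 0%, 0% and 0.773% in null mice. The ranges of the classes did not overlap, and the mean difference within mice was 22.8 percentage points (two-sided exact sign-flip permutation test over 8 mice, p = 0.00781, the smallest that 8 mice allow, higher in 8 of 8). Of the 12 negative class I neurons, 11 were in WT 3, WT 4 and null 4. Without these libraries the difference was 21.4 points in 5 of 5 mice (exact permutation p = 0.0625, the smallest that 5 mice allow). By chromosome, 148 positive neurons used a receptor that the annotation places on chromosome 7, 128 of them class I, and 154 used one placed on chromosome 2. Another 16 used a receptor without a position in that annotation. Among these were the class I genes Olfr607 (3 neurons) and Olfr601 (1 neuron), so the chromosome 7 counts leave some class I neurons out.

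The share of class I receptors was low below the limit of the rule, intermediate at it and level beyond it. It was 0.580% at 0 UMIs (95% Wilson interval 0.332% to 1.01%), 3.60% at 1 UMI (1.84% to 6.95%) and 11.7% at 2 UMIs (6.27% to 20.7%). From 3 UMIs on it was 23.0% to 26.8% in each of 4 bins, with intervals that overlapped. Neurons at exactly 2 UMIs thus lay between the negative neurons and the members with more UMIs, but the bins were not compared within mice. These 257 neurons numbered 21, 3, 46 and 44 in WT mice 1 to 4 and 46, 19, 32 and 46 in null mice 1 to 4. The Wilson intervals cover counting error only, and cells of the same mouse share a library.

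The study listed 78 receptor genes as lower in sorted neurons of null mice, and 73 of them are in the matrices, none of them class I. These receptors were rare in positive neurons, at 7 of 577 (1.21%), and frequent in negative neurons, at 341 of 2069 (16.5%). In positive neurons their share was 0%, 2.63%, 13.3% (2 of 15 neurons) and 2.04% in WT and 0%, 1.27%, 2.17% and 0% in null mice. In negative neurons it was 19.7%, 18.7%, 12% and 20.1% in WT and 18.5%, 12.4%, 15.3% and 12.6% in null mice. The share was lower in positive neurons in 7 of 8 mice, WT 3 being the exception, with a mean difference of -13.5 percentage points (exact sign-flip permutation test, two-sided, p = 0.0156). By UMIs of the rule genes it was 16.5% at 0, 9.46% at 1 and 0% to 3.36% in each bin from 2 UMIs on.

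**Figure D3:**
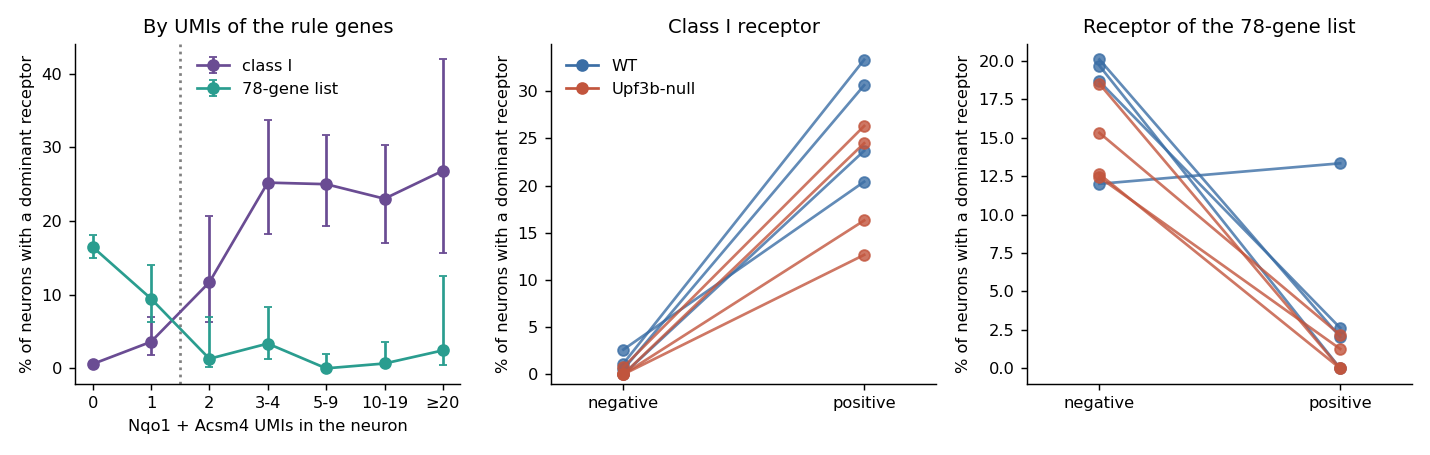
The left panel plots the percent of neurons with a dominant receptor whose receptor is class I (purple) or on the 78-gene list (green) against the neuron's Nqo1 and Acsm4 UMIs, with 95% Wilson intervals and the limit of the rule as a dotted line. The other panels join the negative and positive neurons of each mouse (WT blue, null red): class I rises in all 8 mice, and the 78-gene list falls in 7, WT 3 being the exception at 12% and 13.3%.

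Between genotypes, the receptor classes of positive neurons did not differ beyond the spread between mice. The class I share was 27.0% ± 5.99 (SD, n = 4) in WT and 19.9% ± 6.52 (SD, n = 4) in null mice, a difference of -7.07 percentage points (two-sided exact permutation p = 0.171). The share of the 78 genes was 4.50% ± 5.99 and 0.860% ± 1.06 (SD, n = 4 each), a difference of -3.64 points (exact permutation p = 0.286). WT 3, with 2 such neurons of 15, decided the latter: without it the difference was -0.70 points. Only 7 neurons carry this comparison.

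Genes other than the 14 that the rule used were then compared between positive and negative neurons of the same mice, on counts summed per mouse and class. Of 8679 genes tested, 176 were higher in positive neurons (2.03% of those tested) and 202 were lower (2.33%), 378 in all (4.36%), at an adjusted p under 0.05 (edgeR quasi-likelihood test with the mouse as a block, Benjamini-Hochberg adjustment). Both classes were cut from the same libraries by the rule genes, so a gene that shares transcripts or reads with them is not independent of the rule. Values below are normalised CPM over 8 mice, and log2 fold changes are positive over negative.

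Genes with a known place in the zones came first. Robo2, the Slit receptor of dorsal axons, was at 84.1 to 244 CPM (median 142) in positive and 40.8 to 126 CPM (median 67.9) in negative neurons. It was higher in positive neurons of all 8 mice, although the ranges overlapped between mice (log2 fold change 1.04, SE 0.08, adjusted p = 1.52e-14). Sema3f, a secreted semaphorin of dorsal neurons, was low at 11.7 ± 4.54 against 9.70 ± 8.18 CPM (SD, n = 8) and did not pass the edgeR test (adjusted p = 0.549). Of the ventral list, 4 of 5 genes were lower in positive neurons. Ncam2 was at 3.09 to 46.4 CPM (median 13.6) in positive and 64.8 to 116 CPM (median 75.5) in negative neurons, with no overlap (log2 fold change -2.42, SE 0.23, adjusted p = 1.31e-05). Its highest values in positive neurons, 46.4, 27.6 and 25.4 CPM, were those of WT 3, WT 4 and null 4. Nfix, a nuclear factor I transcription factor, was at 40.2 to 100.1 CPM against 146 to 384 CPM, again with no overlap (log2 fold change -1.95, SE 0.14, adjusted p = 8.77e-06). Nrp2 and Nfib were lower by log2 fold changes of -1.48 (SE 0.17) and -1.58 (SE 0.28), with edgeR adjusted p of 2.40e-05 and 0.0214, and Nfia, at -0.42, did not pass (adjusted p = 0.30). In positive neurons, WT 3, WT 4 and null 4 held Nrp2 at 72.2, 91.4 and 101.5 CPM against 0 to 15.6 CPM in the other mice, and Nfib at 191, 129.6 and 81.7 CPM against 7.72 to 35.0 CPM. Without these 3 libraries the log2 fold changes were -3.04 for Ncam2, -2.25 for Nrp2 and -2.29 for Nfib. Over the 17 alternatives run, log2 fold changes ranged from -3.11 to -1.31 for Ncam2 and from -2.42 to -1.21 for Nfix. Those of Nrp2 ranged from -2.25 to -1.11 and those of Nfib from -2.33 to -1.15. The Nfib call was lost on leaving out null 1, null 2 or null 4, with edgeR adjusted p of 0.0640, 0.0510 and 0.0766. Over all 17 alternatives, the Nfib call was kept in 12 and the Nrp2 call in 15. Robo2 was higher and Ncam2, Nfix, Nrp2 and Nfib lower in the positive neurons of all 8 mice, the direction that the name dorsal gives them.

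The genes with the largest increases had varied roles. Nob1, an endonuclease that matures ribosomal RNA, was at 20.6 to 107 CPM (median 70.4) in positive and 9.66 to 17.6 CPM (median 11.4) in negative neurons (log2 fold change 2.37, SE 0.15, adjusted p = 2.47e-16). In cells of at least 4000 UMIs its log2 fold change was smaller, at 1.51 (edgeR adjusted p = 0.0119). Nob1 (chr8:107412486-107425051) is close to Nqo1 (chr8:107388225-107403206) on the same minus strand. Its lowest values, 20.6 and 29.7 CPM, were in WT 3 and WT 4, where Nqo1 was lowest. Null 4, with Nqo1 at 912.3 CPM against 910.4 CPM in WT 4, held Nob1 at 53.0 CPM. Reads that run between neighbours on a strand could be counted to either, and this was not tested. Cartpt, a neuropeptide precursor, was the most abundant of these genes, at 1047 to 3337 CPM (median 2086) against 422 to 955 CPM (median 631) with no overlap (log2 fold change 1.68, SE 0.10, adjusted p = 7.08e-06). Socs2, a suppressor of cytokine signalling, was at 202 ± 50.5 against 59.3 ± 17.5 CPM (SD, n = 8; log2 fold change 1.81, SE 0.12). All mice but WT 3, at 92.9 CPM, had at least 176 CPM in positive neurons.

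Papss2, which makes the sulfate donor PAPS, was higher by 2.05 (SE 0.25) on the log2 scale, and Hs3st5, a heparan sulfate sulfotransferase that uses this donor, by 1.81 (SE 0.15), at 29.2 to 61.6 against 10.3 to 17.7 CPM with no overlap. Acss2, a cytosolic acetyl-CoA synthetase, was higher by 1.32 (SE 0.15), Grik5, a kainate receptor subunit, by 1.25 (SE 0.19) and D930020B18Rik by 1.10 (SE 0.19). Sox2, a transcription factor of progenitor and sustentacular cells, was called at 1.12 (SE 0.26, edgeR adjusted p = 0.0126) but was higher in 6 of 8 mice only. Its highest values, 67.1 CPM in WT 3 and 90.5 CPM in null 4, were in libraries with the most gland RNA, and the call was lost in DESeq2 (adjusted p = 0.705). The Sox2 call was kept in 9 of the 12 alternatives in which it was tested.

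Among the genes with the largest decreases, 2 were receptors. Olfr1440 had 3 UMIs in positive and 410 in negative neurons, a ratio of 34.5 to total UMIs (exact 95% interval 11.7 to 168), and Olfr1250 had 8 and 808 UMIs. The interval covers counting error only. It takes no account of UMIs that come from the same neuron or of the spread between mice. By mouse, negative neurons held 16 (null 2) to 114 (null 1) UMIs of Olfr1440. Olfr1440 is on the list of 78. Only 5 receptor genes passed the filter on low counts and 3 of them were lower, none higher, so this says little about receptors as a group. Cidea, a lipid droplet protein, was at 15.5 to 40.8 CPM against 51.3 to 174 CPM with no overlap (log2 fold change -2.04, SE 0.11, adjusted p = 8.12e-19). The retinal reductase gene Dhrs3 (-1.85), the aldehyde dehydrogenase gene Aldh3b1 (-2.15), the cytoskeletal adaptor gene Pdlim1 (-2.39) and C130074G19Rik (-3.07) were lower too. The Pdlim1 call was lost without null 1 or null 2, at edgeR adjusted p of 0.0604 and 0.0568, and was kept in 14 of 17 alternatives. Avp, the vasopressin precursor, was called at -2.92 (SE 0.60, edgeR adjusted p = 0.0417) on values of 0 to 25.8 CPM against 3.14 to 169.5 CPM, and lost the call on leaving out any of 6 mice (WT 1, WT 2, WT 4, null 2, null 3 or null 4). Its call was kept in only 2 of the 12 alternatives in which it was tested.

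**Figure D4:**
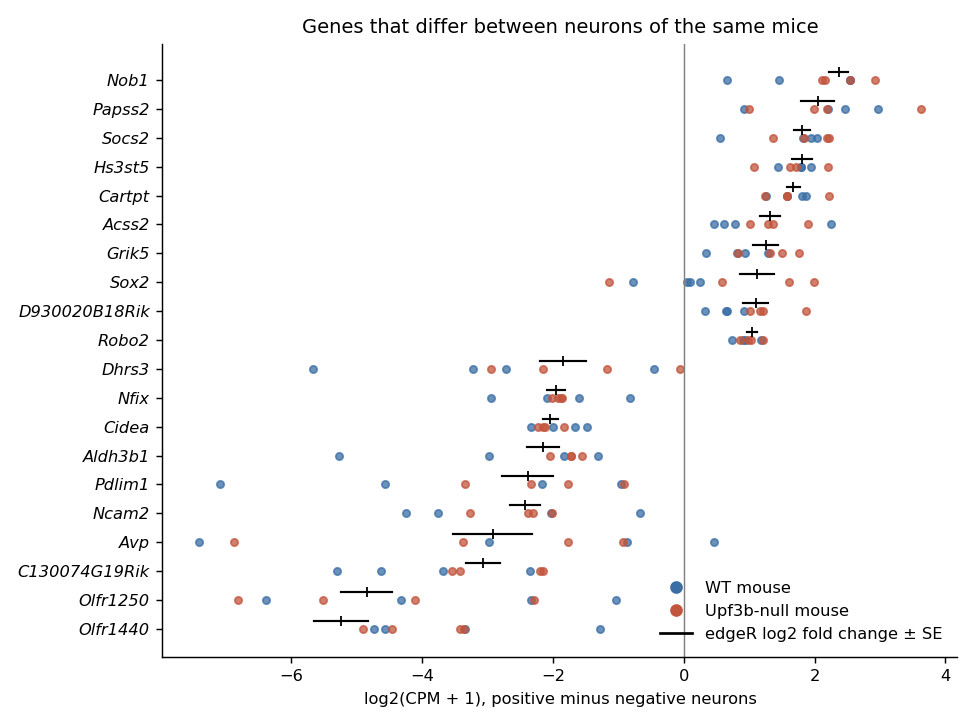
Points give, for each of the 8 mice (WT blue, null red), the difference in log2(CPM + 1) between positive and negative neurons, and bars the edgeR log2 fold change ± SE, for the 10 genes with the largest called increase and the 10 with the largest called decrease. Robo2 lies above 0 in all 8 mice with little spread, while Sox2 and Avp have points on both sides of 0.

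Genes of olfactory transduction differed little. Odorants act through a G protein (Gnal, Gnb1, Gng13), adenylyl cyclase (Adcy3), the cyclic nucleotide-gated channel (Cnga2, Cnga4, Cngb1) and a chloride channel (Ano2), and the phosphodiesterases Pde1c and Pde4a remove the signal. Of 15 tested, 3 were lower and 0 higher in positive neurons (2.33% and 2.03% over all genes), with a median log2 fold change of -0.08 against 0.01 over all genes. Pde1c was at 319 ± 67.5 against 415 ± 102 CPM (SD, n = 8) and was lower in 8 of 8 mice (log2 fold change -0.36, SE 0.06, edgeR adjusted p = 1.37e-05). Ano2 fell by 0.28 (SE 0.07) and Adcy3 by 0.21 (SE 0.05) on the log2 scale, each in 7 of 8 mice. The Adcy3 call was lost on leaving out WT 1 or null 2, and the Ano2 call without null 2 (edgeR adjusted p = 0.0586, 0.0992 and 0.0593). Over all 17 alternatives run, the Adcy3 call was kept in 10, the Ano2 call in 12 and the Pde1c call in 15.

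Axon guidance and activity-dependent genes moved in both directions. Efna5, an ephrin ligand (log2 fold change 0.48), Kirrel3, an adhesion molecule (0.75), and Plxna1, a semaphorin co-receptor (0.36), were higher. The ephrin receptor gene Epha5 (-0.49), Kirrel2 (-0.83), Sema7a (-0.65) and S100a5 (-0.47), a calcium-binding protein gene that follows neuronal activity, were lower. With 7 of 11 tested genes called, against 4.36% of all genes, S100a5 was the most abundant, at 9386 ± 4304 against 13543 ± 6636 CPM (SD, n = 8), and was lower in 8 of 8 mice. Kirrel3 was at 54.5 ± 12.3 against 32.8 ± 3.47 CPM and Kirrel2 at 149.5 ± 76.4 against 268 ± 140 CPM. The Plxna1 call was lost without WT 4 (edgeR adjusted p = 0.129) and without WT 3, WT 4 and null 4 together (log2 fold change 0.19, adjusted p = 0.524).

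Other lists held at most 2 calls each. Of 17 regulators of receptor choice 1 was called, near the 4.36% of all genes, namely the transcription factor gene Bcl11b, at 90.2 ± 57.1 against 124 ± 55.8 CPM (log2 fold change -0.49). Lhx2, at 324 ± 126 against 382 ± 179 CPM, did not pass (edgeR adjusted p = 0.080). Of 11 other genes of the NRF2 and redox list, to which Nqo1 belongs by its known control, the malic enzyme gene Me1 was higher (0.98) and the peroxiredoxin gene Prdx1 lower (-0.40). Presynaptic (7 tested), immediate early (8), NMD factor (9) and NMD substrate (12) lists had 0 calls. The lists of neutrophil (10), sustentacular (3), gland (8), basal (3), immature neuron (4), erythroid (4) and B lineage and macrophage (6) genes had 0 calls as well, but the markers that the rule used (S100a8, S100a9, Cyp2g1, Cyp2a5, Sec14l3, Krt5, Krt14, Krt15, Gap43 and Gng8) were not among those tested. In the list of glial, stromal and other cells, 2 of 5 tested genes were lower, against 2.33% of all genes. They were Apod and Col1a1, lower by -0.77 and -1.22, and Col1a1 in negative neurons was at 107 ± 146 CPM. The other members, Ascl3 (-0.49), Foxj1 (0.05) and Fabp7 (1.03), went both ways and did not pass. The call of Col1a1 was lost on leaving out any of WT 1, WT 2, WT 4, null 1, null 3 and null 4 (edgeR adjusted p = 0.0531 to 0.117), and that of Apod without WT 1, WT 2, null 2 or null 3 (0.0506 to 0.0863).

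The count of calls differed between models and between sets of cells. Without the mouse block 21 genes were called, and with cells of at least 4000 UMIs, which left 5 mice, 17 were called, in each case all among the 378. Without WT 3, WT 4 and null 4, 312 genes were called and 249 were shared with the 378.

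Between genotypes, Upf3b itself was the single gene called in positive neurons. Upf3b (ENSMUSG00000036572, chrX:37091678-37110322, minus strand) had 39, 20, 9 and 49 UMIs in WT and 1, 0, 2 and 0 UMIs in null mice. In normalised CPM this was 60.9, 84.2, 47.0 and 105 against 0.984, 0, 2.36 and 0, with no overlap, which matches the genotype labels. The ratio of 117 to 3 UMIs per total UMIs was 92.1 (exact 95% interval 30.8 to 453, for counting error only), and the log2 fold change was -6.15 (SE 0.60, edgeR adjusted p = 0.00132). It was the 1 call among 6952 genes tested (0.0144%), with 91 genes at an unadjusted p under 0.05 and 1 call by DESeq2. The p-values rest on 4 mice a group that were not the same in free RNA. In a simulation where 200 of 6952 genes had a log2 change of 1.5, this comparison recovered 19% of them. Most changes of that size would thus be missed, so a gene that did not pass, here or below, cannot be taken as unchanged.

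The genes next in rank did not pass the edgeR test in this comparison (adjusted p = 1.00 for each), and their values follow. They were picked by their small p, which favours genes whose groups do not overlap. The share of such genes among all those tested is not given, so a lack of overlap is a description only. Snhg6, a host transcript of small nucleolar RNAs, a kind often degraded by NMD, was at 26.6, 42.1, 20.9 and 64.5 CPM in WT and 110.2, 153, 113 and 106 CPM in null mice. Its groups did not overlap, at a log2 difference of 1.57 (SE 0.36), and it was called without WT 3, WT 4 and null 4, with the set of libraries as a term, and in neurons with 0 UMIs of basal, sustentacular and S100a8 or S100a9 genes (4 mice). Qpctl, which encodes a glutaminyl cyclase, was at 14.2 ± 4.54 in WT and 36.3 ± 7.33 CPM in null mice, and Car2, a carbonic anhydrase gene, at 65.8 ± 26.8 and 228 ± 106 CPM (SD, n = 4). Plac8 and Gm8730 were the other top genes by p with higher values in null mice. Gm6619 was at 37.5, 29.5, 26.1 and 47.3 CPM in WT and 0.984, 1.61, 14.2 and 7.81 CPM in null mice, again with no overlap. Gm21967 (-1.77), Ankmy2 (-0.92) and Erdr1 (-1.04) were next with lower values in null mice.

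Fixed lists held no call but Upf3b, which, with 0.0144% of all genes called, says little about any list. Of 15 transduction genes, 0 were called by edgeR and the median log2 fold change was -0.01, against -0.00 over all genes. Adcy3 was at 522 ± 68.8 CPM in WT and 503 ± 33.3 CPM in null mice, Cnga2 at 512 ± 68.5 and 521 ± 118 CPM, and Gng13 at 5828 ± 2154 and 7653 ± 2959.9 CPM (SD, n = 4 each). Of 12 NMD substrates 0 were called, with a median of 0.18, and of 8 NMD factors Upf3b alone. Robo2 was at 171 ± 53.1 in WT and 141 ± 57.3 CPM in null mice. The erythroid list had a median of 1.82 and the neutrophil list of 1.33, with 0 of 4 and 0 of 10 genes called. The erythroid level of the null sums rested on null 3, at 115549 CPM, since the other null mice, at 2177 to 19596 CPM, lay within the WT range. The part of this RNA in the other values was not tested.

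**Figure D5:**
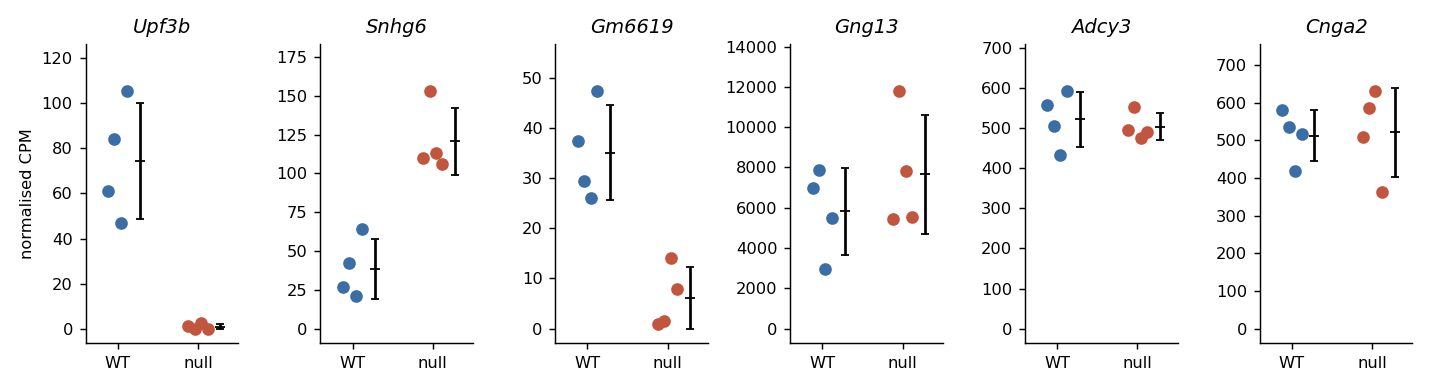
Points give normalised CPM in the positive neurons of each mouse, 4 WT (blue) and 4 Upf3b-null (red), with the mean ± SD beside them, for 6 genes, each on its own linear axis. Upf3b, Snhg6 and Gm6619 do not overlap between genotypes, with only Upf3b called, and Gng13, Adcy3 and Cnga2 overlap. Snhg6 and Gm6619 were picked by their small p, which favours genes without overlap.

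Whether the genotype difference itself differed between positive and negative neurons was tested as an interaction. Of 9948 genes, 10 passed (0.101%), all with a larger null-over-WT value in positive neurons. They were Ccl4, Lgals1, Tyrobp, Scgb2b27, Fabp5, Hk2, Il1b, C1qc, Ctss and Ifitm3, of which Ccl4 and Il1b encode a chemokine and a cytokine, Tyrobp, C1qc and Ctss are myeloid genes, and Scgb2b27 encodes a secretoglobin. Ccl4 was at 3.41 ± 4.17 CPM in WT positive, 29.7 ± 28.6 in WT negative, 28.2 ± 27.3 in null positive and 13.1 ± 11.5 CPM in null negative neurons (SD, n = 4; interaction log2 fold change 3.98, SE 0.56, edgeR adjusted p = 9.30e-05). Lgals1, which encodes a galectin, followed at 2.31 (SE 0.33) with the same adjusted p. For each of the 10, 88.2% to 99.8% of the UMIs in WT negative neurons came from WT 3 and WT 4, which held 1025 and 700 negative neurons against 496 and 511 in WT 1 and WT 2. Without WT 3, WT 4 and null 4, 3 genes passed and 0 of them were among the 10. No transduction, zone or receptor-choice gene passed.

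Within the positive neurons, those with a class I receptor were compared with those with a class II receptor. On sums per mouse without receptor genes, 1185 genes could be tested and 1 was called (0.0844%, edgeR), Cd9, a tetraspanin gene, at 1001 ± 488 CPM in class I and 821 ± 299 CPM in class II neurons (SD, n = 8; log2 fold change 0.51, SE 0.11, adjusted p = 0.0221). DESeq2 called 0, and 83 genes had an unadjusted p under 0.05. Leaving out null 1, null 2 or null 4 also removed the Cd9 call, as did dropping the count filter or asking for a receptor minimum of 5 UMIs. By mouse, Cd9 was lower in class I neurons in WT 4 (305 against 494 CPM) and null 3 (887 against 1007 CPM) and higher in the other mice. Acss2, at 166 ± 46.0 against 97.7 ± 44.6 CPM, was next (adjusted p = 0.0748). The class I sums rest on 132 neurons in 8 mice.

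In bulk RNA of mature neurons, neither Nqo1 nor Acsm4 passed the test between genotypes. In bulk samples, fewer cells of a type and less RNA per cell cannot be told apart. Nqo1 was at 577, 617, 672 and 459.8 CPM in sorted WT neurons and 681, 463, 486 and 598 CPM in null neurons (log2 fold change -0.07, SE 0.15, edgeR adjusted p = 0.835). Acsm4 was at 432, 513, 441 and 148 CPM in WT and 576, 393, 420.1 and 441 CPM in null neurons (0.24, SE 0.29, edgeR adjusted p = 0.712). WT 4, with 148 CPM, decided the sign of the latter, which was -0.01 without it. In ribosome-bound RNA, Nqo1 was at 375, 358 and 315 CPM in WT and 377, 338 and 104 CPM in null samples (-0.35, SE 0.40), and Acsm4 at 299, 319 and 299 CPM and 362, 279 and 141 CPM (-0.21, SE 0.29), both at an edgeR adjusted p of 0.965. The low null sample 3 decided both signs, which became 0.02 and 0.05 without it. Upf3b counts in sorted neurons were 197, 183, 149 and 87 in WT and 0, 1, 0 and 0 in null samples. In RiboTag they were 1101, 1170 and 1166 in WT and 2, 3 and 8 in null samples, with no overlap, yet Upf3b did not pass edgeR there (log2 fold change -7.62, SE 0.73, adjusted p = 0.271) unless null 3 was left out (adjusted p = 4.18e-07). A missed call in the edgeR RiboTag fit therefore says little about Nqo1 and Acsm4. In DESeq2, with null 3 kept, Upf3b passed (adjusted p = 2.24e-22) and Nqo1 and Acsm4 did not (adjusted p = 0.992 for each).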

How the data were processed

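Single-cell libraries were made with the 10x Genomics v2 kit, and the authors deposited UMI count matrices of 27998 genes, made with Cell Ranger on mm10. Bulk tables hold raw counts per transcript that the authors made with STAR 2.5.2b and featureCounts on GRCm38. Columns were taken as deposited, and none lacked a sample. Cells were filtered by the limits in the report without a doublet caller. Members, gene lists and tests were chosen with earlier results of these data known. UMI counts were summed per mouse and class and tested in edgeR 4.0.16 (R 4.3.3, TMM, filterByExpr, robust quasi-likelihood F test, Benjamini-Hochberg limit 0.05). DESeq2 1.42.0, other filters, other member rules and leaving out each mouse were alternatives. Single values per mouse were compared by exact permutation (scipy 1.17.1), and intervals cover counting error only. Named genes were those of the zone and transduction lists, Upf3b, up to 10 genes each way with the largest called change and a mean of at least 20 CPM (or, where fewer than 5 passed, the 5 with the smallest p), the 10 most frequent receptors, and list members. Called genes of the other lists beyond the 4 most abundant were named after their values were seen. Normalised CPM are scaled within each comparison, so a gene's values can differ between comparisons. Positions are from GENCODE vM21, in which 27645 matrix genes were found by identifier. Bulk libraries held 1216784 to 3264827 (RNA-seq) and 2691023 to 7542665 (RiboTag) counts. Scripts were tested on simulated data with a log2 change of 1.5 in 200 genes. The genotype comparison recovered 19% of these genes and the positive-against-negative comparison 99%. The interaction recovered 62.5% and class I against class II 100%. In the same order, false calls numbered 0, 12, 15 and 9.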

Additional observations from a re-analysis of the deposited data

Results flagged for a closer look

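In a group of 4 mice, a value was picked out where its gap to the nearest other took up most of the range of the group (Dixon's test at 95%). Of 66 groups checked, 2 passed this limit, and chance alone picks out about 1 in 20. The log2 difference of Nrp2 between positive and negative neurons was -5.80 in WT 2, against -1.80 to -1.28 in the other WT mice. The positive neurons of WT 2 held 0 UMIs of Nrp2 and its negative neurons 77, so the pseudocount of 1 sets this value and it does not measure the size of a change. The log2 difference of Socs2 was 0.55 in WT 3, against 1.83 to 2.03 in the other WT mice.

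The genotype difference itself differed between positive and negative neurons for 10 genes (edgeR interaction test). Of these, the 7 that met the level asked of named genes were Ccl4 with a log2 value of 3.98, Hk2 with 3.13, Lgals1 with 2.31, Fabp5 with 1.90, Ctss with 1.88, Tyrobp with 1.29 and Ifitm3 with 1.19. Their adjusted p were 9.30e-05 for Ccl4 and Lgals1, 0.00931 for Hk2, 0.00884 for Fabp5, 0.0111 for Ctss, 0.000727 for Tyrobp and 0.0306 for Ifitm3. In DESeq2 only Ccl4 passed, and without WT 3, WT 4 and null 4 none of the 7 passed in edgeR.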

How the results depend on the processing

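The positive share, the receptor shares between genotypes and the rule genes in bulk RNA were not called under any alternative run. Of the class differences, the class I share was 21.5 to 24.3 points and the 78-gene share -15.6 to -12.6 points on leaving out each mouse. Without WT 3, WT 4 and null 4 they were 21.4 and -15.7 points, past no threshold that 5 mice can reach. The genotype comparison gave 2 calls with the replicate block (Upf3b and Coch), 9 in neurons with 0 UMIs of basal, sustentacular and S100a8 or S100a9 genes (4 mice), 3 with the library set as a term and 3 without those libraries. Same-numbered mice had correlations of their deviations of 0.32, 0.55, -0.14 and 0.63, so 3 of 4 pairs deviated together and pair 3 did not, and the numbers were not taken as pairs. The positive-against-negative comparison, with 378 calls, gave 233 in DESeq2, 734 without the count filter, 17 in cells of at least 4000 UMIs, 21 with no replicate block, 177 in WT mice and 194 in null mice alone, and 263 to 402 on leaving out each mouse. Interaction calls, 10 in all, were 1 in DESeq2, 9 in cells of at least 4000 UMIs (0 shared with the 10), 3 without the 3 libraries, and 3 (without WT 3) to 42 (without null 3) on leaving out each mouse, with 18 without null 1. Class I against class II gave 0 in DESeq2, 0 at a receptor minimum of 5 UMIs, 42 without the count filter, and 0 to 5 on leaving out each mouse. Bulk log2 fold changes turned sign on leaving out samples. Nqo1 in RNA-seq was 0.0035 without null 2 and 0.021 without WT 3 (range -0.18 to 0.02), and Acsm4 in RNA-seq was -0.0067 without WT 4 (range -0.01 to 0.40). In RiboTag without null 3, Nqo1 was 0.016 (range -0.65 to 0.02) and Acsm4 0.050 (range -0.52 to 0.05). The 49 called genes that are named gave 600 kept calls, 144 lost calls and 0 reversals over their alternatives. The cause of these changes was not tested. The 78-gene share in positive neurons rests on 7 neurons.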
